A study of Arabidopsis thaliana with 18 samples.

Results

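Transcript isoform sequencing (TIF-seq) joins the 5′ end and the 3′ end of each polyadenylated RNA molecule in 1 read pair, so that a gene can be counted and both of its ends can be read from the same molecules. Here the list of TIF-clusters of wild-type *Arabidopsis* seedlings (Col-0) kept for 3 h at 4 °C was compared, gene by gene, with the list of wild-type seedlings kept at 22 °C. Seedlings of both groups were whole plants aged 14 days, grown on plates with sucrose in long days. Those of the 22 °C group were frozen without a transfer, so temperature, the move to a cold room and its light cannot be told apart. The hour of harvest of either group is not given in the sources used here, so a difference in the time of day cannot be told apart from temperature either. A TIF-cluster is a set of read pairs whose ends lie close together at both sides, and its value is a count of read pairs. The comparison rests on 4 of the 18 samples of the series. Each list pools 2 libraries, so the spread between replicates could not be read from the lists. No test was made, and a rule of size takes its place. In the authors' report the 2 libraries of wild type at 4 °C correlated less well than those of any other TIF-seq group. Intervals are exact or Wilson 95% intervals for counting error only.

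For each coding gene (Araport11 models, TAIR10) the read pairs of its same-strand TIF-clusters were added up and scaled per 1000000 pairs of the list (RPM). The 4 °C list held 690139 read pairs in 42123 TIF-clusters and the 22 °C list held 843121 read pairs in 45707 TIF-clusters. Of these read pairs, 99.7% and 99.6% lay on coding genes. Of 27444 coding genes, 12013 were listed in at least 1 of the 2 lists (14350 over all 6 lists of the series), 8853 in both, 1308 at 4 °C only and 1852 at 22 °C only. The lists start at 3 read pairs a TIF-cluster and leave out starts with no match in a separate map of start sites, so a gene at 0 is one that is not listed, not one without RNA. The authors took start sites from published data for this filter, and mapped further ones in *hen2-2* before and after cold. Which of these was applied to each list is not given in the sources used here. The part of the filter in the genes listed at 1 temperature only was not tested. The other 4 lists of the series serve as a second look: *hen2-2*, which lacks the RNA helicase HEN2 of the nuclear exosome, after 3 h at 4 °C (410655 read pairs) and at 22 °C (794299), and *spt16-1* (924907) and *ssrp1-2* (705245), mutants of the histone chaperone FACT, at 22 °C. Of 10 root markers 5 were listed, among them *TIP2;3* (84 read pairs at 4 °C, 96 at 22 °C), *IRT1* (9 and 27) and *EXPA7* (6 and 14). The genes *SHR* and *WOX5* of root patterning, *NRT2.1* and *PHT1;1* of nutrient uptake and *COBL9* of root hairs were at 0 in both wild-type lists. All 5 of 5 shoot markers were listed. As sets, root markers had 151 RPM at 4 °C and 177 at 22 °C, and shoot markers 6377 and 11009. The sets differ in level, so these counts do not tell which organs the seedlings held.

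Cold is sensed within minutes in this species, and within hours it induces a first wave of transcription factor genes. Best known among them are the CBF (DREB1) activators, which bind the CRT/DRE element of cold-regulated (*COR*) genes. The products of these later genes, dehydrins and other hydrophilic proteins among them, protect membranes and proteins during freezing, while calcium signals, the circadian clock and hormones such as jasmonate and abscisic acid act on the first wave.

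The 4 °C and 22 °C lists were close for most genes. Among 6685 genes with at least 20 read pairs over both lists and some in each, the median log2 ratio of RPM (4 °C over 22 °C) was 0.06, with quartiles of -0.48 and 0.61. At least 4-fold higher at 4 °C were 255 genes (3.81%), and at least 4-fold lower were 170 (2.54%). A further 81 of 6832 genes tested (1.19%) had at least 20 read pairs at 4 °C and none listed at 22 °C, and 66 (0.966%) had at least 20 at 22 °C and none at 4 °C. The higher genes held 4.46% of the read pairs at 4 °C and 0.625% at 22 °C, and the lower genes held 0.269% at 4 °C and 1.47% at 22 °C. Since RNA came from whole seedlings, fewer cells of a type and less RNA per cell cannot be told apart. Calls were most frequent at low counts: 14.9% of genes in the lowest quartile of level were called, against 4.45% in the highest, where 53 were higher, 8 listed at 4 °C only and 15 lower.

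**Figure D1:**
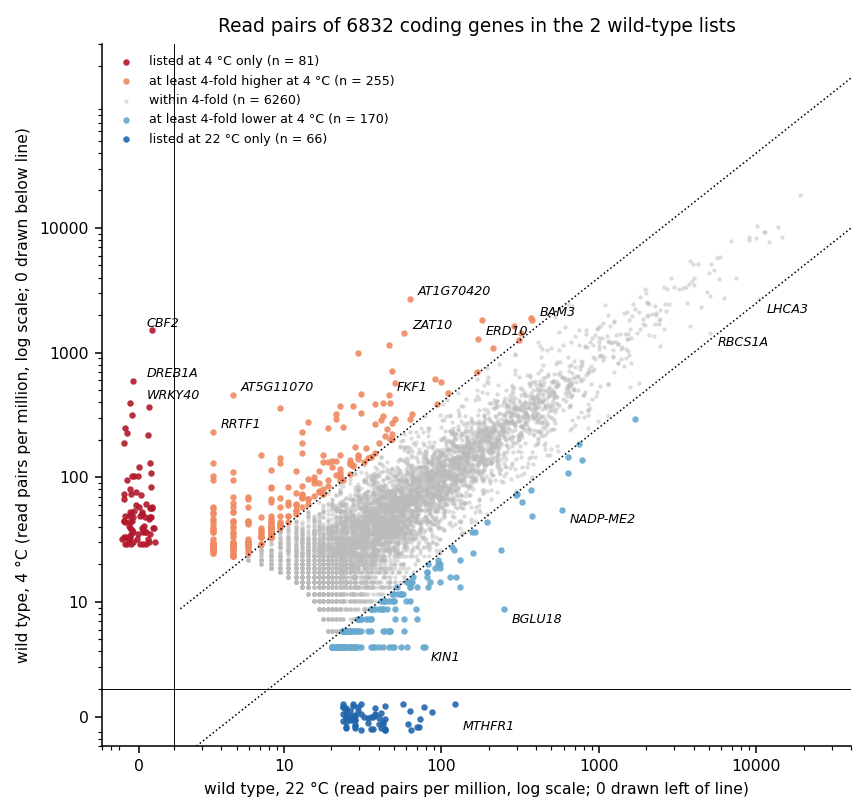
RPM of 6832 coding genes in the wild-type list at 4 °C (y axis) and at 22 °C (x axis), both on log scales, with genes not listed drawn beyond the thin lines and dotted lines at 4-fold. The 81 genes listed at 4 °C only reach 1039 read pairs (*CBF2*), whereas the 66 listed at 22 °C only reach 103 (*MTHFR1*).

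The same rules were run on pairs of lists that share a temperature, to see how many genes differ between 2 pools. In *spt16-1* over wild type, both at 22 °C, 2.97% of genes were at least 4-fold higher and 1.68% lower, and in *ssrp1-2* over wild type 2.42% were higher and 2.73% lower. Listed in the mutant only were 0.936% in *spt16-1* and 0.47% in *ssrp1-2*, and listed in wild type only were 0.57% and 1.1%. Both pairs also differ by genotype, and both share the wild-type 22 °C list with the cold comparison. Neither holds the wild-type 4 °C list, whose libraries correlated least well in the authors' report. Among genes with 200 or more read pairs, 3.48% of 1294 genes were listed at 4 °C only or higher in wild type and 1% were lower, against 0.972% and 0.903% in *spt16-1* over wild type and 0.867% and 1.18% in *ssrp1-2* over wild type. At this depth the share of lower genes at 4 °C lay between those of the 2 mutants, and the share of higher genes lay above both. In *hen2-2*, 4 °C over 22 °C, whose cold list is the shallowest, 2.78% of genes with at least 20 read pairs were higher, 3.37% lower, 0.503% listed at 4 °C only and 3.26% at 22 °C only. There, 2.81% of genes with 200 read pairs were listed at 4 °C only or higher and 0.902% were lower.

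**Figure D2:**
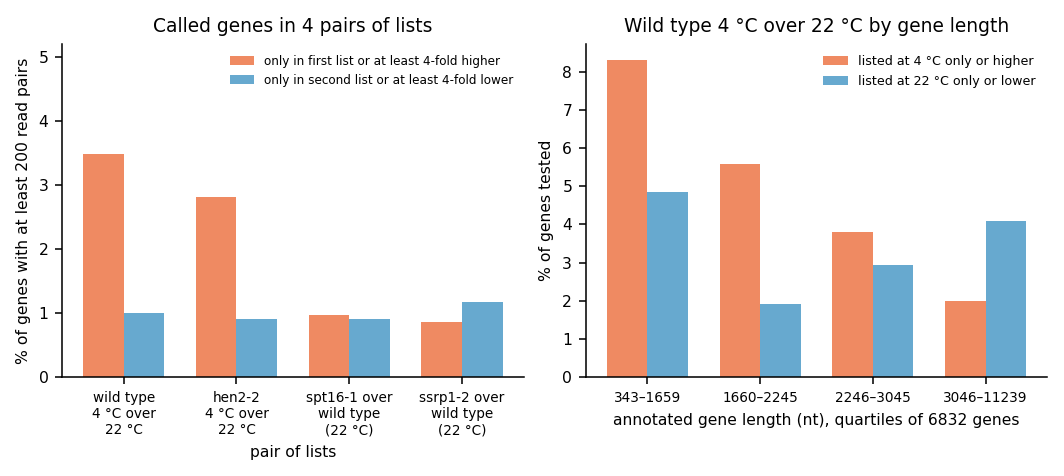
Left, percentage of genes with at least 200 read pairs over both lists that were called in each of 4 pairs of lists, and right, percentage of all genes tested that were called in wild type at 4 °C over 22 °C, by quartile of annotated gene length. Calls upwards stand at 3.48% in wild type 4 °C over 22 °C and below 1% in both FACT mutants over wild type, and decline with gene length.

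Among genes listed at 4 °C only, *CBF2* and *DREB1A* had the most read pairs. With *CBF1* they are 3 neighbours on chromosome 4. *CBF2* had 1039 read pairs in 26 TIF-clusters at 4 °C (1505 RPM) and none at 22 °C. *DREB1A* (*CBF3*) had 410 at 4 °C and none at 22 °C, and *CBF1* had 75 and none. All of them were listed in *hen2-2* at 4 °C (655, 324 and 43 read pairs) and at 0 in each of the lists at 22 °C. Their sequences are close, and only uniquely aligned reads were kept, so the order of levels among them is uncertain. After *CBF2* and *DREB1A* came *WRKY40*, a stress-induced WRKY transcription factor, with 272 read pairs at 4 °C and none at 22 °C. The uncharacterised *AT4G18422* had 251 and *AT1G70640*, which codes for a PB1 domain protein, had 216 at 4 °C, against none at 22 °C. *CMPG2*, a U-box E3 ubiquitin ligase gene, had 170, *AT3G23170* had 157 and the thaumatin family gene *AT4G36010* had 150 at 4 °C, with none at 22 °C. Of the 81 genes, 69 were also listed in *hen2-2* at 4 °C, as were 5757 of the 6260 genes within 4-fold. At 0 in all of the other 22 °C lists were 28 of the 81 genes and 16 of those 6260. Listed in all of them were 23 of the 81 and 5977 of the 6260. By rule the 6260 genes were listed in wild type at both temperatures. They also had more read pairs over both lists, with a median of 65 against 33 for the 81 genes.

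Among genes listed at both temperatures, the 10 with the largest ratios (50 or more read pairs over both) rested on 3 to 53 read pairs at 22 °C. *AT5G11070* had 315 read pairs at 4 °C and 4 at 22 °C, a log2 ratio of 6.59 (95% interval 5.22 to 8.47). It had 47 to 63 in the other 22 °C lists, and its log2 ratio in *hen2-2* was 2.90. *RRTF1*, an ERF transcription factor of redox and jasmonate responses, had 160 at 4 °C and 3 at 22 °C. *AT1G70420*, which codes for a protein with a domain of unknown function, had the most read pairs of the 10, with 1858 read pairs at 4 °C and 53 at 22 °C (log2 ratio 5.42, 5.03 to 5.84), and it gave 5.71 in *hen2-2*. *ZAT10*, a zinc finger repressor, had 995 at 4 °C and 49 at 22 °C (4.63, 4.22 to 5.08). The glycine-rich protein gene *AT3G04640* had 799 at 4 °C and 39 at 22 °C, and *AT1G11210* had 679 at 4 °C and 25 at 22 °C. The others were *AT4G27652* (247 at 4 °C, 8 at 22 °C), *BCB*, which codes for a blue-copper-binding protein (90 and 3), the chitinase family gene *AT1G02360* (70 and 3) and the zinc finger gene *ZF3* (65 and 3). *AT1G02360* had 50 read pairs in *spt16-1* at 22 °C, which leaves it under 4-fold against that list.

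**Figure D3:**
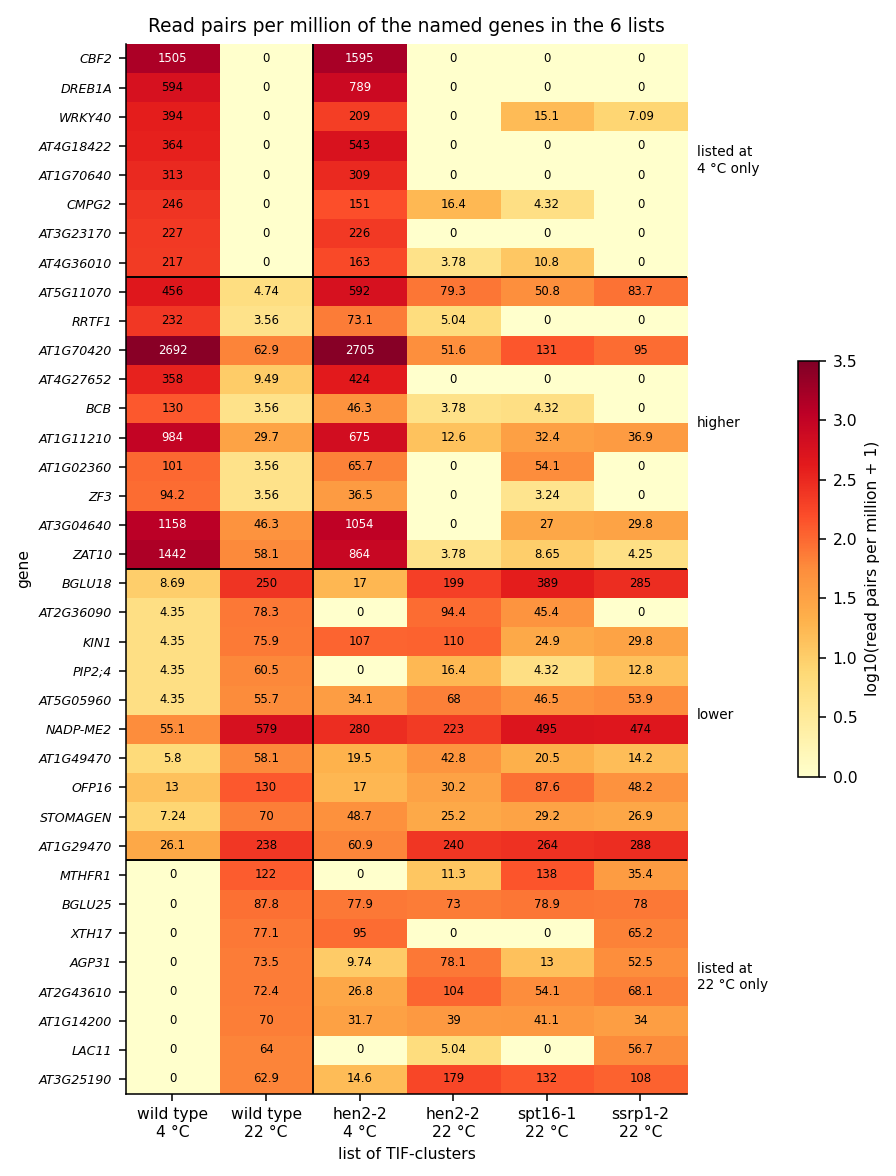
RPM of the genes with the most read pairs or the largest ratios (rows, in 4 blocks) in the 6 lists (columns), with colour on the scale log10(value + 1). In the upper blocks both 4 °C columns stand out from the 22 °C columns, as for *CBF2* (1505 and 1595 RPM, against 0), whereas in the lower blocks the wild-type 4 °C column often stands alone, as for *NADP-ME2* (55.1 in wild type at 4 °C, 280 in *hen2-2* at 4 °C, 579 in wild type at 22 °C).

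How far these calls depend on the pooled wild-type list at 22 °C was read from the other 22 °C lists, a comparison added after the data were seen. The wild-type 4 °C list, on which the genes were called, stayed the same in these counts, so dependence on it was not read from them. Of the 255 higher genes, 131, 118 and 131 were also at least 4-fold above the *hen2-2*, *spt16-1* and *ssrp1-2* lists at 22 °C, and 85 (33.3%) were above all of them. Of the 81 genes listed at 4 °C only, 46 were at least 4-fold above all of them or at 0 there. Of the 170 lower genes, 33 (19.4%) were at least 4-fold below all of the other 22 °C lists. The same rules, with at least 20 read pairs at 4 °C also asked for in the first, were met by 0.559% (higher) and 0.176% (lower) of the 6260 genes within 4-fold. Of the 66 genes listed at 22 °C only, 46 (69.7%) were listed, at any level, in all of the other 22 °C lists. So were 5977 of the 6260 genes within 4-fold, a larger share, but these had more read pairs over both wild-type lists (median 65, against 26). The wild-type and *hen2-2* cold comparisons share no list. Of 161 higher genes measured in *hen2-2*, 121 (75.2%) had a log2 ratio above 0 there, with a median of 0.95 against 2.44 for the same genes in wild type, and of 119 lower genes 33 (27.7%) did, with a median of -0.44 against -2.30. Over all 5378 genes measured in both pairs 39.3% were above 0 in *hen2-2* (median -0.20), so the higher genes had more values above 0 than all genes, and the lower genes fewer. Across these genes Pearson's r of the log2 ratios was 0.29 and Spearman's rho 0.21, and genes are not independent replicates.

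Both 4 °C lists were at least 4-fold above each of the 4 lists at 22 °C for 88 of 6832 genes (1.29%), and at least 4-fold below each for 14 (0.205%). Of the 88, 36 were listed at 4 °C only in wild type, and 61 (69.3%) have a single exon, against 13% of all genes tested. Besides the *CBF* genes they include *BAM3*, a chloroplast beta-amylase gene, with 1253 and 659 read pairs in wild type and *hen2-2* at 4 °C, against 80 to 317 in the lists at 22 °C. *RAV1*, an AP2/B3 transcription factor gene, had 751 and 424 at 4 °C, against 41 to 178. Some ubiquitin ligase genes were among them, with no list of such genes tested. *CMPG1* had 159 and 82 at 4 °C against 0 to 25 at 22 °C, *RDUF1* had 98 and 36 against 8 to 19, *PUB23* had 89 and 30 against 3 to 8, and *PUB25*, *PUB19* and *PUB39* were listed at 4 °C only in wild type. *CAF1a*, a subunit of the deadenylase complex that shortens poly(A) tails, had 172 and 70 at 4 °C against 0 to 16, and *MKK9*, a MAP kinase kinase gene, had 92 and 52 against 3 to 19. These names were picked after their values were seen. Of the 14 genes below, *BGLU18* had 6 and 7 read pairs at 4 °C against 158 to 360 at 22 °C, and 11 were at 0 in wild type at 4 °C.

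Most first-wave transcription factor genes were called. Of 28 members, 23 could be tested: 8 were listed at 4 °C only (1.19% of all genes tested), 11 were at least 4-fold higher (3.81% of all genes in both lists), none was lower or lost, and 14 of the 28 belong to the 88 genes above. Together the members had 8523 RPM at 4 °C and 1458 RPM at 22 °C. The median log2 ratio of the 15 members listed at both temperatures was 2.37 (0.06 over all genes), and that of 14 members in *hen2-2* was 3.18. The list was drawn up from knowledge of the cold response and with results of these data known. Alongside *ZAT10*, *ZAT12*, a zinc finger gene, had 104 read pairs at 4 °C and 6 at 22 °C (4.40, 3.23 to 5.88), and *ERF5*, an ethylene response factor gene, had 190 at 4 °C and 12 at 22 °C (4.27, 3.44 to 5.25). The immune and stress regulator *WRKY33* had 213 at 4 °C and 36 at 22 °C (2.85). *ERF2* (51 at 4 °C, 0 at 22 °C), *ERF11* (41 and 0), *DEAR1* (34 and 0) and *HSFC1* (31 and 0) were listed at 4 °C only. *MYB44* was within 4-fold, with 760 at 4 °C and 693 at 22 °C (0.42), and *WRKY25*, higher in wild type (2.05), gave -0.11 in *hen2-2*.

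The *COR*, dehydrin and other effector genes, some of them targets of the CBF proteins, were mostly within 4-fold. Of 15 members tested of 21, 1 was higher (3.81% of all genes in both lists), 1 was lower (2.54%) and 13 were within 4-fold. Their median log2 ratio was 0.41. *ERD10*, a dehydrin gene, had 885 read pairs at 4 °C and 144 at 22 °C (2.91, 2.65 to 3.17), but 411 to 671 in the other 22 °C lists, and its log2 ratio in *hen2-2* was 1.03. *COR47*, its close relative, had 1441 at 4 °C and 1215 at 22 °C (0.53, 0.42 to 0.65). *RD29A* had 112 at 4 °C and 55 at 22 °C (1.31), and *COR15A*, which codes for a chloroplast protein that stabilises membranes, had 48 and 55 (0.09, -0.50 to 0.68). *KIN1* had 3 read pairs at 4 °C and 64 at 22 °C (-4.13), while its near-identical neighbour *KIN2* had 53 and 47 (0.46). With unique alignments the split between these copies is uncertain, and in *hen2-2* *KIN1* gave -0.03. *RCI2B*, a gene of a small membrane protein, was at 67 and 315 (-1.94) in wild type and at 0.52 on the log2 scale in *hen2-2*.

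**Figure D4:**
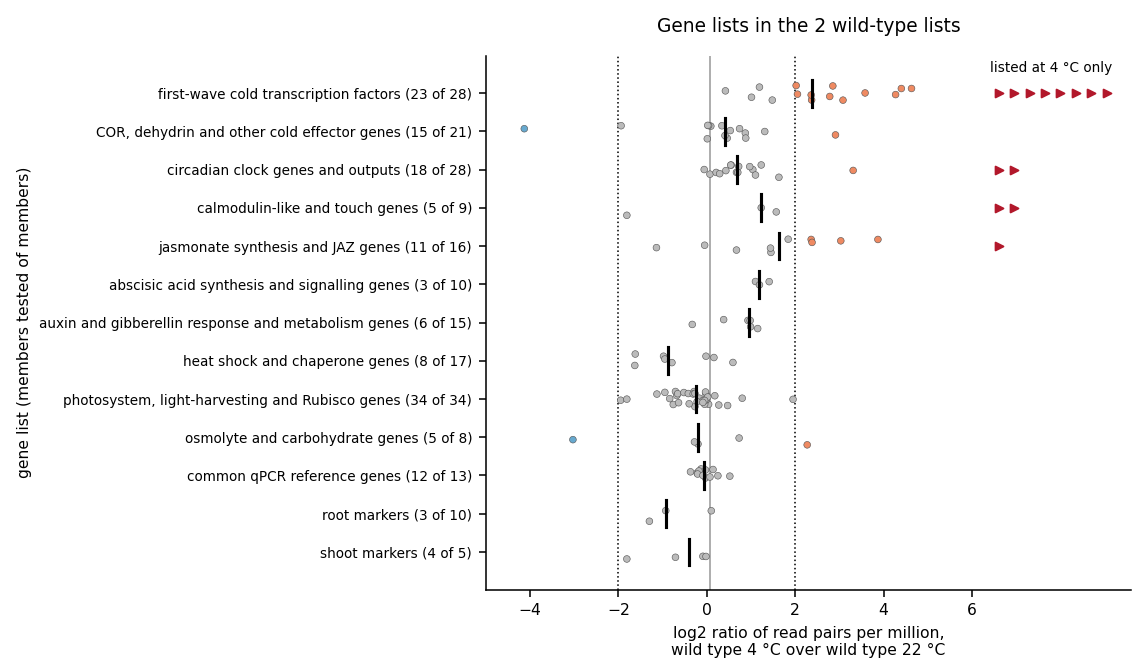
Log2 ratio of RPM in wild type, 4 °C over 22 °C, for the tested members of each gene list, with the list median as a black bar, the median of all genes (0.06) as a grey line, dotted lines at 4-fold and arrowheads for members listed at 4 °C only. First-wave factors lie at 0.42 to 4.63 with 8 arrowheads, whereas 34 photosystem, light-harvesting and Rubisco genes lie within 4-fold.

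Circadian clock genes and their outputs were mostly within 4-fold. Of 18 tested of 28, 2 were listed at 4 °C only, 1 was higher and 15 were within 4-fold. Over all genes, 1.19% of those tested were listed at 4 °C only and 3.81% of those in both lists were higher. The list median was 0.68 in wild type and -0.12 in *hen2-2*. *FKF1*, a blue-light receptor gene of the photoperiod pathway, had 317 read pairs at 4 °C and 39 at 22 °C (3.31, 2.83 to 3.83), against 19 to 82 in the other 22 °C lists, and gave 3.36 in *hen2-2*. *COR28*, a clock-linked cold-response gene, had 90 at 4 °C and none at 22 °C, though 9 and 34 in *spt16-1* and *ssrp1-2*. *RVE2*, a Myb-like gene related to *CCA1*, had 26 at 4 °C and none in any list at 22 °C. *TOC1* had 43 and 17 (1.63), *ELF4* had 104 and 54 (1.23), *CCA1* had 54 and 40 (0.72), and *LHY* was at 0 in both lists. The hours of harvest are not known, so the part of the time of day in these values was not tested.

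Of 11 jasmonate genes tested of 16, 1 was listed at 4 °C only (1.19% of all genes tested), 4 were higher in wild type (3.81% of all), none was lower, and the median was 1.64 in wild type against -0.53 over 8 members in *hen2-2*. *JAZ1*, a repressor of jasmonate signalling, had 491 read pairs at 4 °C and 41 at 22 °C (3.87, 3.41 to 4.37), and 3.36 in *hen2-2*. *JAZ5* had 20 and 3 (3.03), *LOX3*, a lipoxygenase gene, had 42 and 10 (2.36), and *AOC1*, an allene oxide cyclase gene, had 21 and none, with 11 to 31 in the other 22 °C lists. *OPR3*, a peroxisomal reductase gene of jasmonate synthesis, had 47 at 4 °C and 11 at 22 °C (2.38, 1.42 to 3.48) in wild type, but 6 at 4 °C and 71 at 22 °C in *hen2-2* (-2.61). *JAZ6*, *JAZ2* and *JAZ9* gave 1.44, 1.45 and 1.84 in wild type and -0.49, -0.71 and -1.55 in *hen2-2*.

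Among calmodulin-like and touch genes, 5 of 9 could be tested, and 2 were listed at 4 °C only (1.19% of all genes tested). *CML38*, a calmodulin-like gene, had 71 read pairs at 4 °C and 94 in *hen2-2* at 4 °C, with none in any list at 22 °C. *CML37* had 33 in wild type at 4 °C and none in every other list. *TCH4*, a xyloglucan-modifying enzyme gene induced by touch, had 846 at 4 °C and 348 at 22 °C (1.57, 1.39 to 1.75), and *TCH2* had 94 and 49 (1.23). *CAM2* was at 7 and 30 (-1.81). All 3 tested abscisic acid genes of 10 lay 2-fold or more higher in wild type, as did 942 of the 6685 genes, and none reached 4-fold. Their median was 1.19 in wild type and 0.30 in *hen2-2*. Among them was *ABF1*, a bZIP transcription factor gene, with 54 at 4 °C and 29 at 22 °C (1.19, and 0.30 in *hen2-2*). Of 6 tested auxin and gibberellin genes of 15, none reached 4-fold, and *IAA3* had the largest ratio, with 69 and 38 (1.15). Neither *NCED3*, the synthesis gene of abscisic acid, nor any gibberellin metabolism gene on the list was listed in wild type.

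Heat shock and chaperone genes had a median log2 ratio of -0.87 in wild type and -1.22 in *hen2-2*, and none of 8 tested of 17 reached 4-fold. *HSP70-4* had 22 read pairs at 4 °C and 83 at 22 °C (-1.63), *BIP2*, an endoplasmic reticulum chaperone gene, had 72 and 271 (-1.62), and *HSP90.2* had 143 and 345 (-0.98). *HSP70-1*, the constitutive form, had 1367 and 1693 (-0.02). Among osmolyte and carbohydrate genes, *BAM3* was higher (2.27, 2.09 to 2.45), and *SUS1*, a sucrose synthase gene, had 4 read pairs at 4 °C and 40 at 22 °C (-3.03, -4.98 to -1.57), yet 15 at 4 °C and 7 at 22 °C in *hen2-2* (2.05). The other 22 °C lists had 7 or 8 read pairs of *SUS1*. Of 12 reference genes tested, all were within 4-fold, between -0.37 and 0.52.

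Nuclear photosystem, light-harvesting and Rubisco genes had 160660 RPM at 4 °C and 195768 RPM at 22 °C. All 34 were tested and none reached 4-fold, with a median of -0.25 in wild type and 0.12 in *hen2-2*. *LHCA3*, an antenna gene of photosystem I, had the lowest ratio, with 1859 read pairs at 4 °C and 8758 at 22 °C (-1.95, -2.02 to -1.87). It had 1173 in *hen2-2* at 4 °C and 5940 to 10491 in the other 22 °C lists (-1.76 in *hen2-2*), so its read pairs were fewer in both cold lists than in every list at 22 °C. *LHCB4.2*, of the photosystem II antenna, had the highest ratio, with 1704 at 4 °C and 540 at 22 °C (1.95), and 1.37 in *hen2-2*. *RBCS1A*, a gene of the Rubisco small subunit, had 996 at 4 °C and 4256 at 22 °C (-1.81), but 0.73 in *hen2-2*, with 1102 to 4499 over the other 22 °C lists. Rubisco small subunit genes have close paralogues, so the split of reads among them is uncertain.

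The lowest ratios rested on few read pairs at 4 °C. *BGLU18*, a beta-glucosidase gene that releases abscisic acid from its glucose ester, had 6 read pairs at 4 °C and 211 at 22 °C (-4.85, -6.31 to -3.70), and -3.54 in *hen2-2*. *NADP-ME2*, a cytosolic malic enzyme gene, had 38 at 4 °C and 488 at 22 °C (-3.39, -3.91 to -2.92), but 115 at 4 °C and 177 at 22 °C in *hen2-2* (0.33). The methyltransferase family gene *AT1G29470* had 18 at 4 °C and 201 at 22 °C (-3.19), and -1.98 in *hen2-2*. *OFP16* had 9 and 110 (-3.32), *STOMAGEN*, a peptide gene of stomatal development, had 5 and 59 (-3.27, with 0.95 in *hen2-2*), and *AT2G36090*, *KIN1*, the aquaporin gene *PIP2;4*, *AT5G05960* and *AT1G49470* had 3 or 4 read pairs at 4 °C and 47 to 66 at 22 °C. Of the 8 genes with the most read pairs among those listed at 22 °C only, *MTHFR1*, a methylenetetrahydrofolate reductase gene, had 103, and the others had 53 to 74: *BGLU25*, *XTH17*, *AGP31*, *AT2G43610*, *AT1G14200*, *LAC11* and *AT3G25190*. *BGLU25* had 32 and *XTH17* 39 in *hen2-2* at 4 °C. Of all 66 genes, 45 were listed in *hen2-2* at 4 °C and 46 in all of the other 22 °C lists. The same held for 5757 and 5977 of the 6260 genes within 4-fold, which had more read pairs and by rule were listed in wild type at both temperatures.

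Genes listed at 4 °C only and higher genes were shorter and more often of a single exon than all genes tested, while the lower genes were close to them. A single exon was annotated for 49.4% of the 81 genes listed at 4 °C only (38.8 to 60%), 33.3% of the higher genes (27.8 to 39.3%), 25.8% of the 66 genes listed at 22 °C only (16.7 to 37.4%), 12.9% of the lower genes and 13% of all genes tested. Median gene length was 1739 nt for genes listed at 4 °C only, 1828 nt for higher, 2113 nt for genes listed at 22 °C only, 2281 nt for lower and 2246 nt for all tested. By quartile of length, the share listed at 4 °C only or higher was 8.31% in genes of 343 to 1659 nt, 5.57%, 3.8% and, in genes of 3046 nt and longer, 1.99%. The share lost or lower was 4.86%, 1.93%, 2.93% and 4.1%. The median width of TIF-clusters, weighted by read pairs, was 1506 nt at 4 °C and 1448 nt at 22 °C. From the shortest to the longest quartile, the median log2 ratio was -0.03, 0.20, 0.09 and -0.04 in wild type. In *hen2-2*, 4 °C over 22 °C, it fell with length: 0.02, -0.15, -0.24 and -0.41. The 88 genes above were also chosen on the *hen2-2* list at 4 °C, and the part of this fall in their make-up was not tested. The part of library fragment length in the calls was not tested.

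Promoter sequence was read from 250 bases before to 50 bases from the most used 5′ end of each tested gene. On both strands 6 motifs were searched, none of which contains another. The CAMTA core (CGCGTT), bound by calmodulin-binding activators, was in 9.52% of 336 windows of genes listed at 4 °C only or higher (6.83 to 13.1%), in 2.97% of 236 windows of lost or lower genes and in 4.95% of all 6832. The evening element (AAAATATCT), a clock motif also found in cold-induced promoters, was in 6.85% (4.6 to 10.1%), 2.97% and 3.72%. The CRT/DRE core (CCGAC) was in 13.1% (9.9 to 17.1%), 19.1% and 19.4%, so that it was least frequent in the first of these groups. The G-box (CACGTG) was in 13.1%, 9.75% and 11.1%, the W-box core (TTGACC) in 17.3%, 13.1% and 14.2%, and the heat shock element (GAANNTTC) in 13.7%, 13.1% and 12.5%. No test was made, and a match is not a binding site. Windows around the match nearest to the start are shown for 7 of the genes named above, on TAIR10 and in the direction of the gene, with the motif in capitals, to show what the counts refer to:
*DREB1A* evening element, 42 bases before the 5′ end, chr4:13019175-13019203, minus strand: ttttgcctctAAAATATCTtccgccatta
*FKF1* evening element on the opposite strand, 70 bases before, chr1:25508629-25508657, plus strand: aactaagccaAGATATTTTaaaagtttaa
*COR28* evening element, 152 bases before, chr4:16285180-16285208, minus strand: gctccaaaaaAAAATATCTggctgatatt
*CBF2* CAMTA core, 63 bases before, chr4:13016292-13016321, minus strand: agacagaaactcCGCGTTcgaccccacaaa
*AT1G02360* CAMTA core, 58 bases before, chr1:473177-473206, minus strand: gtcaaaagtcaaCGCGTTgatcatttacac
*ERD10* CRT/DRE core, 167 bases before, chr1:7089361-7089389, minus strand: tccaccgaccgaCCGACgtaaaagaaaat
*AT3G04640* CRT/DRE core on the opposite strand, 108 bases before, chr3:1261653-1261681, minus strand: attttgtaattaGTCGGatatattaaaat

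The make-up of transcripts differed little. Of read pairs on genes, 88.8% spanned the whole coding sequence at 4 °C and 85.6% at 22 °C, 9.04% and 11.6% started inside it, and 1.99% and 2.61% ended inside it. In the other 22 °C lists, internal starts took 8.3 to 9.4%, so the wild-type 22 °C list had the largest share of the lists at that temperature and the 4 °C list lay within their range. In *hen2-2* the shares were 11.4% at 4 °C and 9.4% at 22 °C, the opposite direction.

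Both ends of transcripts lay at the same place for most genes. For 3894 genes with at least 20 read pairs in each list, the 5′ end at 4 °C (the median over read pairs) was within 20 nt of that at 22 °C for 89.4%, with a median shift of -1 nt. The 3′ end was within 20 nt for 82%, with a median shift of 0 nt. A shift is counted along the gene, below 0 for upstream. The ends are the outer limits of TIF-clusters, which are drawn in each list separately. In *PSBO1*, for example, the last main limit lay at -132 nt from the annotated end in *hen2-2* at 4 °C and at -104 nt in *spt16-1* at 22 °C, so shifts of this size, and shares within 20 nt of a site, carry this uncertainty. A shift of the 5′ end by 100 nt or more was seen in 13 genes downstream (0.334%) and 34 upstream (0.873%), and of the 3′ end in 33 downstream (0.847%) and 10 upstream (0.257%). Such shifts were also seen between lists of 1 temperature, which share the wild-type list. In *spt16-1* over wild type the 5′ shares were 0.321% downstream and 0.711% upstream and the 3′ shares 0.436% and 0.39% of 4357 genes. In *ssrp1-2* over wild type they were 0.355% and 0.939%, and 0.787% and 0.457%, of 3940 genes. In *hen2-2*, 4 °C over 22 °C, they were 1.18% and 0.369%, and 0.849% and 1.73%, of 2709 genes, so the more frequent direction at each end was the opposite of that in wild type. Of the 34 genes shifted upstream at the 5′ end, 29 could be read in all of the other 22 °C lists, and in 16 of them each of those lists lay nearer to the 4 °C position than to that of wild type at 22 °C. None of the 34 was 4-fold higher or lower, and their median log2 ratio was -0.09.

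Most of the largest 5′ shifts lay between a start before the coding sequence and one inside it. The authors describe a false excess of TIF-seq starts towards the 3′ ends of genes, which their start-site filter was to remove. Its part in starts inside the coding sequence, here and in the shares by class above, was not tested. *AT3G25520*, a gene of ribosomal protein L5, had 71.7% of 385 read pairs within 20 nt of the upstream site at 4 °C and 37.3% of 964 at 22 °C, but 86.6% in *spt16-1* at 22 °C and 30.1% in *hen2-2* at 4 °C. *CP5* had 26.3% of 1505 read pairs at its upstream site at 4 °C and 24.9% of 2068 at 22 °C, so its shift of -1519 nt goes with a small difference in usage of that site. *AT1G64370*, lower at 4 °C (95 read pairs, against 663 at 22 °C), used its main start site for 31.6% of read pairs at 4 °C and 83% at 22 °C. That share was 43.2% in *hen2-2* at 4 °C and 88.8 to 94% in the other 22 °C lists, so both cold lists stood below all lists at 22 °C.

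A change of 3′ end with depth behind it was seen in *PSBO1*, a gene of the oxygen-evolving complex of photosystem II. Its 3′ end moved upstream by 98 nt in wild type and by 92 nt in *hen2-2*, with nearly equal levels in wild type (2594 read pairs at 4 °C and 3292 at 22 °C). The site at the median position at 4 °C, 218 nt before the annotated end of the gene, took 60.1% of read pairs at 4 °C (58.2 to 62%) and 21.2% at 22 °C (19.8 to 22.6%). The site at the median position at 22 °C, 120 nt before the annotated end, took 2.43% at 4 °C and 57.6% at 22 °C. Counted another way, 97.5% of read pairs in wild type and 81.8% in *hen2-2* ended more than 150 nt before the annotated end at 4 °C, against 40.1% in wild type, 27% in *hen2-2*, 45.2% in *spt16-1* and 23.1% in *ssrp1-2* at 22 °C. At this point the 2 cold lists did not overlap with the 4 lists at 22 °C. The point of 150 nt was set after the profiles were seen. How many other genes would part the cold lists from the rest at a point set in this way was not counted. The 30 bases up to each site, on the plus strand of chromosome 5, are given to locate them:
*PSBO1*, median site at 4 °C, chr5:26570214-26570243: cacatgcctaagatcttgaattttctgtat
*PSBO1*, median site at 22 °C, chr5:26570312-26570341: aattgtttgttatcgactaaatctggtttg
Neither stretch holds AATAAA on the gene's strand. Over all genes tested, AATAAA was present before the most used 3′ end in 8.45%. The stretch at 4 °C ends at the median position, which is not the most used end. In wild type at 4 °C that position, -218 nt, held 1.54% of read pairs, against 43% at -214 nt.

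*PYL4*, an abscisic acid receptor gene, moved the other way, by 116 nt downstream in wild type and 113 nt in *hen2-2*. The downstream site took 37.9% of 240 read pairs at 4 °C and 9.26% of 108 at 22 °C, and 55.4% of 56 in *hen2-2* at 4 °C against 9.03% of 155 at 22 °C. Ends more than 280 nt before the annotated end, a point also set afterwards, made up 35.8% at 4 °C in wild type and 37.5% in *hen2-2*, against 69.4 to 92.9% in the 4 lists at 22 °C. In *JAZ12* the 3′ end lay 119 nt upstream at 4 °C, and the site used at 22 °C took 0 of 64 read pairs at 4 °C and 86.6% of 172 at 22 °C, but this site took 1.51% in *spt16-1* at 22 °C. *BXL1*, a beta-xylosidase gene, shifted by -128 nt in wild type and by 125 nt in *hen2-2*. *AT4G19200* shifted by -95 nt in wild type and -37 nt in *hen2-2*. Among genes with at least 50 read pairs in each list, the largest 3′ shifts were in *VPS41*, *AT3G09980*, *AT1G47970* and *NACA5* (1096 to 5632 nt downstream). They lay between an end inside the coding sequence at 22 °C and one behind it at 4 °C. None was repeated in *hen2-2*, with shifts of -24, -7, -24 and -20 nt in that order. In *VPS41*, *AT1G47970* and *NACA5* each of the other 22 °C lists lay nearer to the wild-type position at 4 °C than to that at 22 °C. In *AT3G09980* only *ssrp1-2* did. For *VPS41* the 22 °C site took 24.3% at 4 °C and 37.5% at 22 °C, with 14.7 to 21.2% in the other 22 °C lists.

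**Figure D5:**
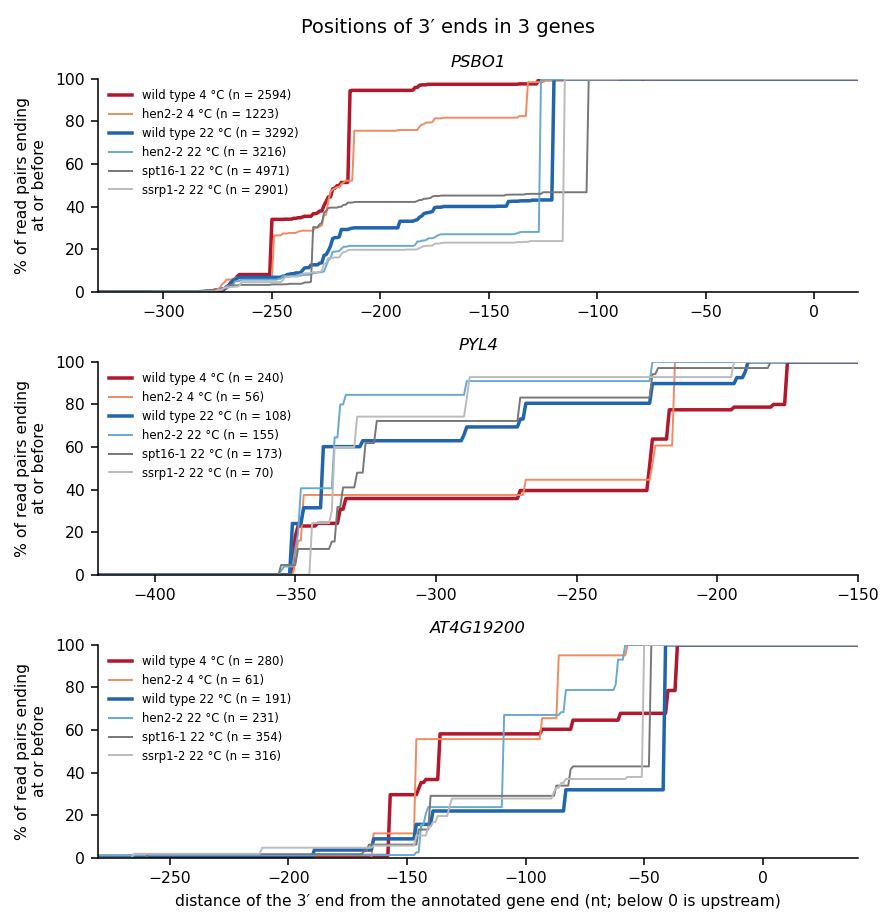
Cumulative percentage of read pairs by position of the 3′ end relative to the annotated gene end (nt) in the 6 lists, for 3 genes chosen after their values were seen. In *PSBO1* both 4 °C curves stand above all 22 °C curves at -150 nt (at least 81.8%, against at most 45.2%), in *PYL4* both stand below them at -280 nt (at most 37.5%, against at least 69.4%), curves of both temperatures cross further upstream in each, and in *AT4G19200* the *hen2-2* 22 °C curve crosses both 4 °C curves.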

How the data were processed

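TIF-seq data of wild-type seedlings at 4 °C and 22 °C, with 4 further lists, were used. The deposited values are counts of read pairs per TIF-cluster. Per the methods of the authors, reads were trimmed with cutadapt, aligned to TAIR10 with STAR 2.6.1c (both also named in the submitters' processing notes), kept where uniquely aligned, and freed of PCR copies by molecular identifiers. Replicates were merged before clustering. The authors dropped TIF-clusters under 3 read pairs, 3′ ends next to A-rich genome sequence, and 5′ ends that no mapped start site matched. No column was left unused. Counts were not normalised by the authors.

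Here each TIF-cluster was assigned to the coding gene on its strand that covers at least 50% of it (Araport11 models as carried by RefSeq, assembly TAIR10.1, whose nuclear chromosomes equal TAIR10, starts read as counting from 0). Ratios of read pairs per 1000000 carry exact conditional binomial intervals (Clopper-Pearson), shares Wilson intervals, both for counting error only. Named genes were the 8 listed at 1 temperature with the most read pairs, the 10 with the largest ratios in each direction among genes with 50 read pairs, the 6 largest end shifts among genes with 50 in each list, and up to 4 members of each gene list. Further list members, and genes picked by their values in several lists, were chosen after the values were seen, as were the CAMTA windows. Members and gene lists were chosen with earlier results of these data known. Alternatives were other scalings (TMM, median of ratios), minima, folds, assignments, classes and equal depth. Scripts were tested on simulated data (Python 3.11.15, scipy 1.17.1, numpy 2.4.6, matplotlib 3.10.9, pandas 2.3.3). TSS-seq samples were not analysed here.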

Additional observations from a re-analysis of the deposited data

Results flagged for a closer look

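*OPR3* and *SUS1* lay on opposite sides in the cold comparisons of the 2 genotypes, a difference that was not tested. *OPR3* had a log2 ratio of 2.38 in wild type, 4 °C over 22 °C, and -2.61 in *hen2-2*. The wild-type list at 22 °C had 11 of its read pairs, against 71 to 151 in the other lists at that temperature. *SUS1* had -3.03 in wild type and 2.05 in *hen2-2*, and here the wild-type list at 22 °C had 40 read pairs, against 7 or 8 in the others.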

How the results depend on the processing

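No paired analysis was possible because the replicates were pooled before deposit, and for the same reason no replicate could be left out. Genes listed at 4 °C only were 81, and 235, 22 and 139 with a minimum of 10 or 50 read pairs and with TIF-clusters of 5 or more. Genes listed at 22 °C only were 66, and 320, 9 and 123 under these settings and 43 at equal depth (1 random draw). Higher genes were 255, and 128 with 50 read pairs, 40 with 200, 942 and 72 at 2-fold and 8-fold, and 85 against all 4 lists at 22 °C. Lower genes were 170, and 60, 13, 776, 21 and 33 in that order, and 113 with non-overlapping genes only. The settings with 200 read pairs or other lists were chosen after seeing the data. Scaling moved the median log2 ratio of all genes to -0.02 (TMM) and 0.00 (median of ratios), with 230 and 233 higher genes. The median of calmodulin-like and touch genes was 1.23, and 1.77 with TIF-clusters of 5 or more. That of shoot markers was -0.40, and 0.02 with whole coding sequence TIF-clusters only. For 5′ ends, the 13 downstream and 34 upstream shifts became 23 downstream by the most used end, 6 and 21 with 50 read pairs in each list, 7 and 7 with whole coding sequence TIF-clusters, and 44 and 52 at 50 nt. They became 20 and 17 against *hen2-2*, 21 and 21 against *spt16-1* and, upstream, 13 against *ssrp1-2*, all at 22 °C. For 3′ ends, the 33 downstream and 10 upstream shifts became 70 and 39 by the most used end, 8 and 3 with 50 read pairs, 120 and 80 at 50 nt, 18 downstream with whole coding sequence TIF-clusters, and 21 upstream against *hen2-2* at 22 °C. The 4 °C share minus the 22 °C share was 3.23 percentage points for whole coding sequences (3.34 with non-overlapping genes, 2.15 by TIF-clusters, 3.08 at equal depth), -2.54 for internal initiation (-2.78, -1.04 and -2.42) and -0.62 for internal termination (-0.467 and -0.928 under the first 2). Of higher genes, 75.2% were above 0 in *hen2-2* (88.8% with 50 read pairs), and of lower genes 27.7% (36.6% by median of ratios). Among called named genes that kept read pairs in both lists, none was reversed under the other scalings, assignments, classes, TIF-clusters of 5 or more or equal depth. The minima for a gene were not applied here. Genes listed at 1 temperature only, and genes that dropped out of a list under a setting, could not be read for a reversal. Against other lists at 22 °C, chosen after seeing the data, directions of single genes were not all kept: *OPR3* had 68.1 read pairs per 1000000 in wild type at 4 °C, against 89.4 to 163, and *AOC1* had 30.4, against 33.5 in *spt16-1* and 31.2 in *ssrp1-2*. The cause of the moves was not tested. A ratio of a gene with 3 read pairs in 1 list has an interval of about 4 log2 units.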
